A study of Mus musculus with 4 samples.

Results

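The lipid-handling genes of macrophages Apoe, Trem2, Lpl, Fabp4, Fabp5, Cd36, Abca1, Abcg1, Plin2 and Gpnmb were read out in single cells of mouse sarcomas. They were taken by symbol, and all 10 were present among the 17992 genes measured in malignant cells and the 16349 measured in non-malignant cells. The tumors were allografts, taken from the hind limb, of mice labelled KrasLSL-G12D/+;Trp53flox/flox on the 129/SvJae background. The study compared 2 groups of 2 mice. The vehicle group received PBS by intraperitoneal injection, and the digoxin group received digoxin, a cardiac glycoside that inhibits the sodium-potassium pump, at 2 mg/kg, dissolved in DMSO and diluted in PBS. Injections were given every 24 h, and tumors were collected after 4 doses. The age of the mice, the Cre that recombined the alleles and the number of tumor lines behind the allografts are not given in the sources used here, nor is it stated whether the genotype is that of the grafted cells or of the hosts. Tumors were dissociated with enzymes and red blood cells were lysed before loading on a droplet platform that counts unique molecular identifiers (UMIs) at transcript 3′ ends.

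Macrophages that take up dying cells and lipoproteins have to store or export the lipid they ingest. CD36 brings in fatty acids and oxidized lipoproteins, lipoprotein lipase (Lpl) releases fatty acids from triglyceride, and the fatty acid binding proteins Fabp4 and Fabp5 carry them inside the cell. Perilipin 2 (Plin2) coats the lipid droplets where they are stored. The transporters Abca1 and Abcg1 pass cholesterol out to acceptors such as apolipoprotein E (Apoe), and their genes are textbook targets of the liver X receptors (LXR). TREM2 is a lipid-sensing receptor on macrophages, and Gpnmb is a membrane glycoprotein of lipid-laden and lysosome-rich macrophages. Several of the 10 also have classical roles elsewhere: Fabp4 and Cd36 in capillary endothelium and fat, Trem2 in osteoclasts, and Lpl in tissues that burn or store fatty acids.

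The malignant table held 3976 to 6269 cells per mouse, with a median of 46799 to 57658 UMIs per cell, and the non-malignant table held 3014 to 3344 cells per mouse, with a median of 15837 to 16671. Of 31498 distinct cell barcodes, 113 occurred in more than 1 library. Levels are given as mean CPM, the UMIs of a gene of a cell scaled to a total of 1000000 UMIs and averaged over the cells of a population in 1 mouse, and are not compared between genes. Values are listed in the order vehicle replicates 1 and 2, then digoxin replicates 1 and 2. The host cells of vehicle replicate 2 stood apart from those of the other mice. Their macrophages carried Xist at 0.161 CPM, against 635.3, 752.4 and 753.3 CPM in the other mice, and the Y-linked gene Ddx3y at 87.7 CPM, against 1.74 to 2.28 CPM. Their macrophages were also mixed differently, with 29.0% in the deposited M1 sub-cluster, 61.5% in M2 and 9.49% in Highly proliferative M2. In the other mice M1 made up 42.5% to 47.6%, M2 39.2% to 43.5% and Highly proliferative M2 11.1% to 15.5%. Results are therefore given with and without this mouse where it decides them. Nothing in the labels says whether mice of a group shared a graft or a batch, so p-values measure only the spread between these 4 libraries.

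Cell types carry the deposited names. Cells named Epithelial and cells named Microglia went against their markers, and cells named Neutrophil carried a macrophage gene beside a neutrophil gene. Cells named Epithelial carried the endothelial genes Cdh5, at 858.8 to 971.0 CPM, and Pecam1, at 822.3 to 883.3 CPM, with the epithelial marker Epcam at 0 to 0.359 CPM. They are called endothelial-marker cells (deposited name Epithelial) here. Cells named Microglia had Tmem119, a defining microglial gene, at 0 to 2.75 CPM and the plasmacytoid dendritic gene Siglech at 2178 to 2592 CPM, and are called Siglech-high cells (deposited name Microglia). Cells named Neutrophil, 5 to 34 per mouse, carried S100a8 at 1626 to 52570 CPM together with the macrophage gene C1qa at 657.3 to 1271 CPM. Cells named Osteoclasts had their defining genes Acp5 at 8936 to 15970 CPM and Ctsk at 7144 to 11210 CPM, and cells named Dendritic had Ccr7, a gene of migratory dendritic cells, at 2436 to 3627 CPM. The 30 cells named Unknown all came from vehicle replicate 2 and are left out of the orders of cell types.

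Apoe differed widely between mice. In macrophages its level was 1399.8 and 6535.7 CPM with vehicle, and 2637 and 3093 CPM with digoxin. Both digoxin mice lay between the vehicle mice. Vehicle replicate 2 was higher than vehicle replicate 1 by 2.22 on the log2 scale, and only 0.146% of the 13734 genes tested in macrophages differed between these mice by as much. Outside macrophages, Apoe was found at 650.7, 1249, 854.4 and 1179.8 CPM in fibroblasts, and at 58.8 to 115.2 CPM in malignant cells. The macrophage range overlapped that of cells named Neutrophil, at 117.1 to 3166 CPM. Fibroblasts lay above all types ranked below them except T cells, which reached 688.8 CPM in vehicle replicate 2.

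Trem2 followed macrophages and osteoclasts. Its macrophage levels were 204.8, 333.4, 238.4 and 225.4 CPM, and its osteoclast levels were 246.7, 281.7, 241.8 and 178.8 CPM. These ranges overlapped, and all other types lay below both, with cells named Neutrophil next at 77.6 to 104.0 CPM and malignant cells at 4.66 to 7.18 CPM. Abca1 was highest in macrophages, at 171.7, 255.2, 232.9 and 189.3 CPM, a range that overlapped that of the endothelial-marker cells, at 129.2, 181.5, 154.9 and 171.9 CPM. Malignant cells held 13.8 to 23.6 CPM of Abca1. Abcg1 was found in most host types. It lay at 26.2 to 42.8 CPM in macrophages, 43.9 to 51.1 CPM in endothelial-marker cells and 26.02 to 46.4 CPM in Siglech-high cells, ranges that overlapped those of their neighbours in the order. Malignant cells, at 4.09 to 6.71 CPM, and fibroblasts, at 2.69 to 4.07 CPM, lay below the ranges of the other types in this order except B cells, which were measured in 4 to 18 cells per mouse. An annotated ribosomal RNA gene, Gm25447, overlaps Abcg1 on the same strand, so UMIs of that overlap could not be told apart.

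Lpl was not a macrophage-leading gene in these tumors. Osteoclasts carried 610.7, 497.5, 421.3 and 434.6 CPM and fibroblasts 375.6, 407.0, 241.0 and 478.7 CPM, overlapping each other. Macrophages held 38.0, 19.3, 42.7 and 50.3 CPM, below both, and malignant cells 1.25 to 1.94 CPM. Of all Lpl UMIs in vehicle replicate 2, 47.6% came from osteoclasts, of which that mouse held 152, and 26.9% from macrophages. In the other mice macrophages gave 55.0% to 67.1% and osteoclasts, at 28 to 47 cells, 10.0% to 14.7%.

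Fabp4 was an endothelial and tumor-cell gene here. Endothelial-marker cells carried 4573, 474.9, 1003.7 and 1683 CPM, and malignant cells 53.4, 103.4, 76.0 and 88.5 CPM, while macrophages held 11.9, 12.4, 11.9 and 14.0 CPM. Malignant cells lay below the endothelial range and overlapped that of fibroblasts, at 31.4 to 83.7 CPM. Malignant cells, which were most numerous and had the deeper libraries per cell, supplied 65.3% to 96.1% of the Fabp4 UMIs of a mouse, and macrophages 1.35% to 2.55%. Fabp5 was highest in cells named Dendritic, at 2220, 1902, 2026 and 1868 CPM over 10 to 21 cells per mouse. Malignant cells came next, at 620.8, 519.7, 566.8 and 685.4 CPM, above macrophages, at 407.8, 359.3, 448.3 and 425.9 CPM, with no overlap between these 3. Endothelial-marker cells, at 614.2, 123.9, 280.9 and 357.9 CPM, overlapped both malignant cells and macrophages.

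Cd36 was highest in endothelial-marker cells, at 530.2, 70.6, 286.5 and 304.9 CPM. Macrophages came next by their mean over mice, at 48.7, 8.33, 38.6 and 53.3 CPM. That range overlapped those of B cells, at 0 to 40.9 CPM, and Siglech-high cells, at 6.06 to 13.4 CPM. It also overlapped that of cells named Neutrophil, at 0 to 21.6 CPM. B cells and Siglech-high cells were above macrophages in vehicle replicate 2, from 1 UMI in 4 B cells and 5 UMIs in 38 Siglech-high cells. Between macrophages and endothelial-marker cells the ranges did not overlap, and vehicle replicate 2 was the lowest mouse in both populations. Malignant cells held 0.314 to 1.40 CPM. Plin2 was present throughout. Macrophages carried 237.5, 262.1, 293.2 and 270.6 CPM, overlapping the cells named Neutrophil, at 171.1 to 888.4 CPM, and all other types lay below the macrophage range, with malignant cells at 77.0 to 85.8 CPM. Gpnmb was low in every type. Its highest means were in malignant cells, at 8.49, 22.0, 13.6 and 15.2 CPM, and in macrophages, at 11.8, 7.03, 17.2 and 11.9 CPM, and these ranges overlapped. The 4 mice sit close together for most genes and types, and vehicle replicate 2 leaves them for Apoe and Cd36, in the plot of levels by cell type.

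**Figure D1:**
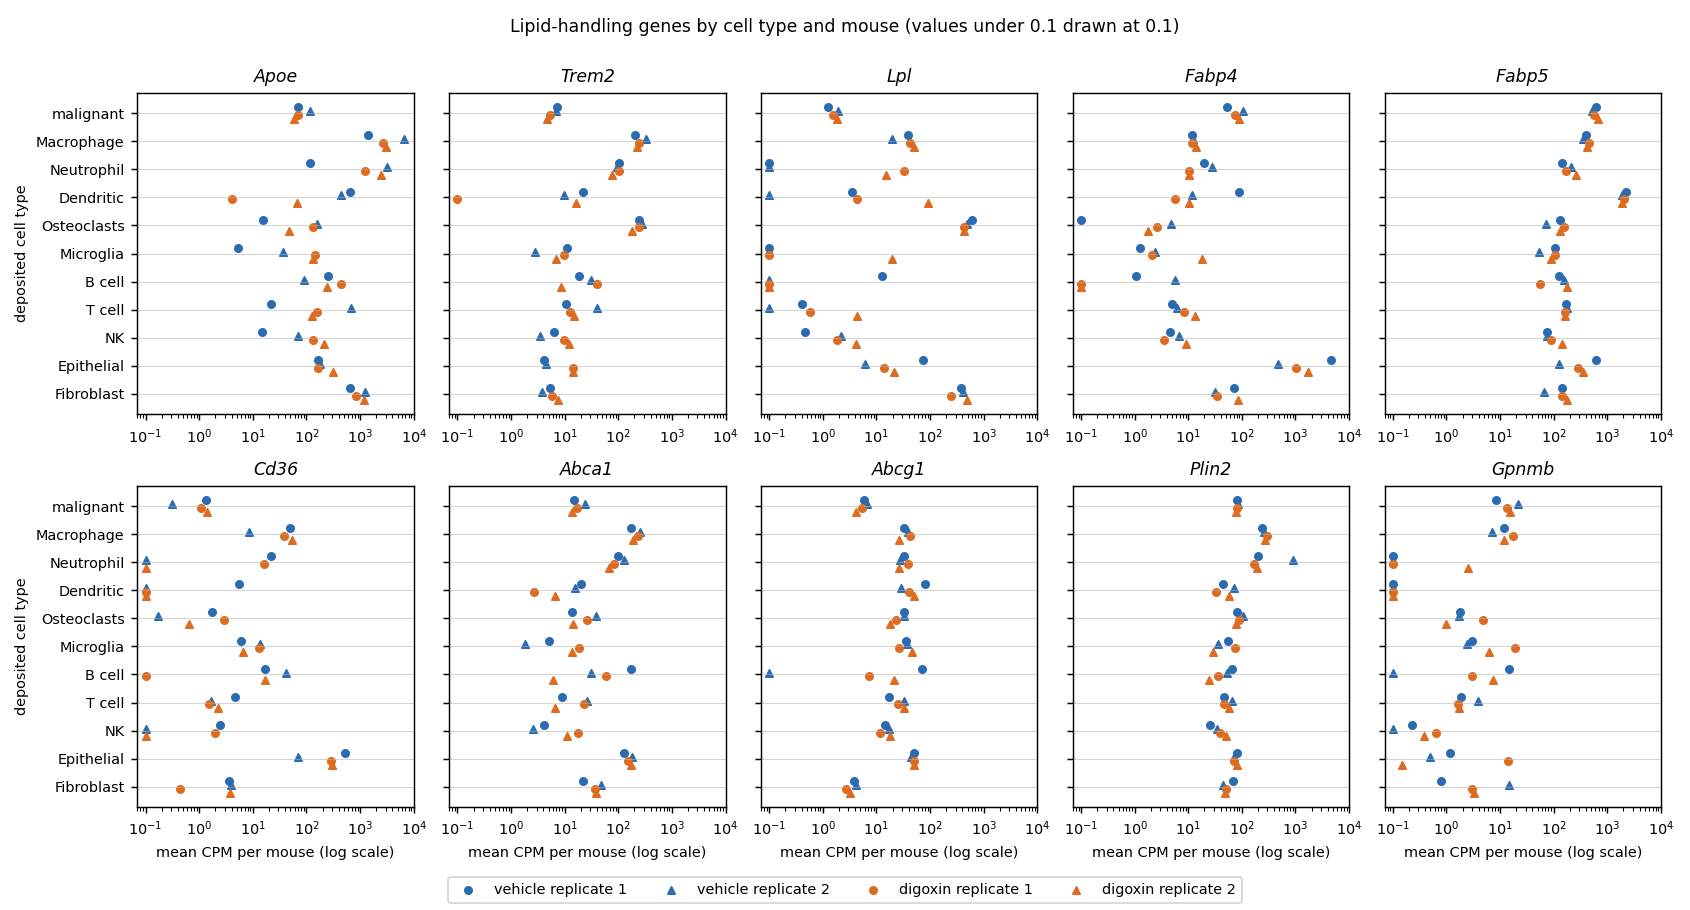
Mean CPM of each gene (log axis) in each deposited cell type, 1 point per mouse, with values under 0.1 drawn at 0.1. Macrophages and osteoclasts, which overlap, lead for Trem2, and macrophages lead for Abca1, overlapping cells named Epithelial. Osteoclasts and fibroblasts lead for Lpl, cells named Epithelial for Fabp4 and Cd36, and cells named Dendritic for Fabp5.

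The members peaked in different macrophage sub-clusters. Sub-clusters were made from these same cells and genes, so the differences are a description with no test. Apoe, Trem2 and Abca1 were highest in M2 in 4 of 4 mice. Fabp4, Fabp5, Cd36, Abcg1 and Gpnmb were highest in M1 in 4 of 4 mice, and Lpl was highest in Highly proliferative M2 in 4 of 4 mice. Plin2 was highest in M1 in 3 mice and in M2 in 1.

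Apoe in M2 macrophages was 2655, 9127.5, 5134 and 5655 CPM. The same mice carried 605.4, 2506, 770.4 and 1016.5 CPM in M1, so that M2 exceeded M1 by 3.64 to 6.66 times within a mouse. Trem2 in M2 was 269.3, 411.3, 325.0 and 307.1 CPM, and M2 exceeded M1 by 1.66 to 2.11 times. Abca1 in M2 was 282.3, 339.1, 350.5 and 260.8 CPM, and M2 exceeded M1 by 1.89 to 2.80 times. The general macrophage gene Adgre1 was also higher in M2, at 376.7 to 475.3 CPM, than in M1, at 149.6 to 180.1 CPM, while Cd68 overlapped, at 367.8 to 519.0 and 387.1 to 478.5 CPM.

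The 250 bases upstream of the start of each of these 3 genes are shown because the genes shared the M2 pattern in every mouse. They are RefSeq sequences of GRCm38.p6, the assembly behind the mm10 build that the submitters' processing notes name, and end at the base before the annotated start. Capitals mark matches to any of 7 short motifs searched on both strands.

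Abca1, chr4:53159896-53160145, minus strand: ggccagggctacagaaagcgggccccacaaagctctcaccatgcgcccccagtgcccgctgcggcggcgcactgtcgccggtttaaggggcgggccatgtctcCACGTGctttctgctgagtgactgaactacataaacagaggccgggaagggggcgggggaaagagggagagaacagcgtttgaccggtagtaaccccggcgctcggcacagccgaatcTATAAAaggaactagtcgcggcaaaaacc

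Trem2, chr17:48346151-48346400, plus strand: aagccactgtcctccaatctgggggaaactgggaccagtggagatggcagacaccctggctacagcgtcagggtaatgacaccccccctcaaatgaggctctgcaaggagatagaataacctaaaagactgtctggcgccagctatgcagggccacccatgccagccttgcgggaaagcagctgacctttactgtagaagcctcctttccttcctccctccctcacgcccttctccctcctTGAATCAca

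Apoe, chr7:19699189-19699438, minus strand: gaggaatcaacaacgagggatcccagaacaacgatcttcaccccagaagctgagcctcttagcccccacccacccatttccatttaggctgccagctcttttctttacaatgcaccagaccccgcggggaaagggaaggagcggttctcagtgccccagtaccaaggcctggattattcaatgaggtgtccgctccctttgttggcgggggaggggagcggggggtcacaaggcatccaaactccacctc

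The Abca1 window held the E-box CACGTG, from 147 to 142 bases before the start, and TATAAA, from 29 to 24 bases before it. CACGTG occurs in 6.02% and TATAAA in 12.4% of 32851 mouse promoter windows of this length. The Trem2 window held the AP-1 motif TGANTCA, from 9 to 3 bases before the start, found in 6.75% of windows. The Apoe window shown held none of the 7, and another of the Apoe windows held TATAAA, on both strands, from 100 to 91 bases before its start. The other motifs searched were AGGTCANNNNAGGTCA, the direct repeat bound by LXR, in 0.0152% of windows, AGGTCANAGGTCA, that of peroxisome proliferator-activated receptors, in 0.0335%, GAGGAAGT, a PU.1 core, in 2.44%, and CATGTG, an M-box core, in 12.3%. None of these 4 was in any of the 8 windows that RefSeq gave for Apoe, with 3 starts, Trem2, Abca1, Cd36, Plin2 and Gpnmb. A match here is a string of letters, not a measured site, and only exact letters were matched. A window without a match may hold a diverged form of a motif, so a miss is not read as the lack of a site. No window was found for Lpl, Fabp4, Fabp5 and Abcg1.

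Among the M1-leading genes was Gpnmb. Its levels in M1 were 20.8, 11.7, 31.5 and 22.0 CPM and in M2 3.34, 5.15, 3.69 and 3.43 CPM, so that M1 exceeded M2 by 2.27 to 8.54 times. Cd36 in M1 was 58.1, 15.9, 58.2 and 66.0 CPM and exceeded M2 by 1.63 to 4.04 times. Fabp5 in M1 was 527.6, 389.4, 637.4 and 584.1 CPM and exceeded M2 by 1.13 to 2.55 times, the smallest ratio being that of vehicle replicate 2. Abcg1, the partner of Abca1 in cholesterol export, went the other way from Abca1: M1 held 42.2, 54.5, 49.7 and 35.0 CPM, 1.36 to 1.82 times M2. Fabp4 was low in all 3 sub-clusters, at 15.3 to 17.7 CPM in M1, 8.75 to 14.6 CPM in M2 and 3.51 to 10.1 CPM in Highly proliferative M2. Lpl in Highly proliferative M2 was 85.5, 84.2, 123.7 and 108.6 CPM, 2.57 to 5.49 times M1 and 2.42 to 7.53 times M2. Plin2 was at 246.8 to 388.4 CPM in M1, 209.3 to 280.6 CPM in M2 and 181.5 to 208.8 CPM in Highly proliferative M2.

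**Figure D2:**
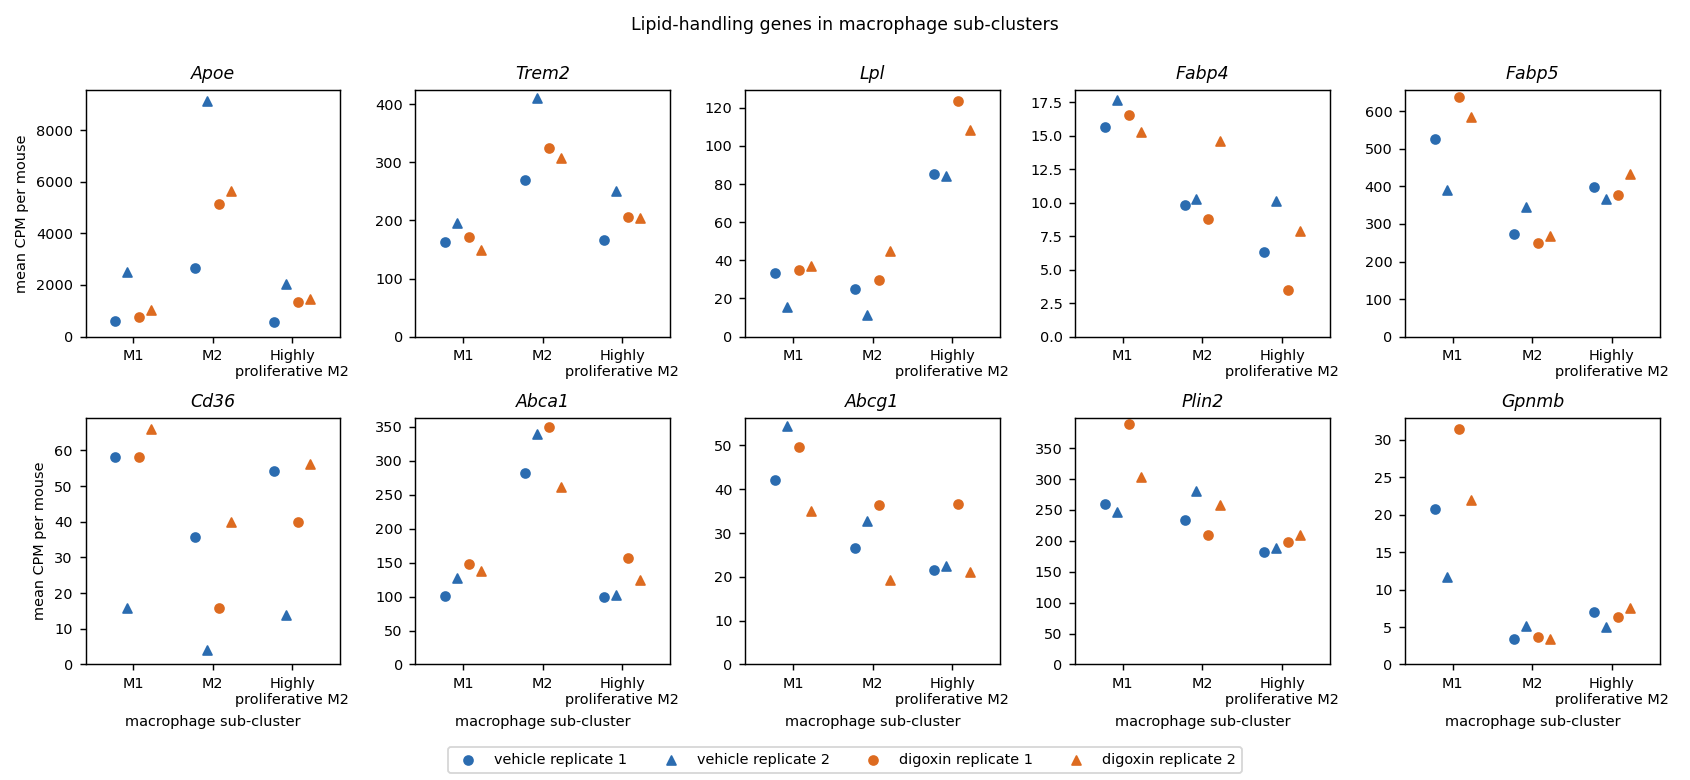
Mean CPM of each gene in the 3 macrophage sub-clusters, 1 point per mouse, vehicle in blue and digoxin in orange. Apoe, Trem2 and Abca1 peak in M2, Lpl in Highly proliferative M2 and Fabp5, Cd36, Abcg1 and Gpnmb in M1 in each mouse.

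Within a sub-cluster the levels were uneven from cell to cell. In M2 of vehicle replicate 2 the median cell held 5474 CPM of Apoe and the top 10% of cells over 24260 CPM, whereas in M1 of vehicle replicate 1 the median cell had no Apoe UMI and the top 10% of cells held 86.0% of the total. Fabp5 in M1 was similarly uneven, the top 10% of cells holding 64.7% to 68.7% of the summed level, against 40.0% to 47.7% in M2. Pearson correlations between members over the cells of a sub-cluster are given as descriptions, since the cells of a mouse share a library and differ in depth. In M1, Fabp5 and Gpnmb had r of 0.407 to 0.482 over the 4 mice and Cd36 and Gpnmb 0.353 to 0.457. Apoe and Abca1 had r of 0.279 to 0.502 in M1, 0.220 to 0.401 in M2 and 0.360 to 0.562 in Highly proliferative M2. In the last of these Lpl ran against both, with r of -0.407 to -0.292 for Apoe and -0.401 to -0.374 for Abca1, and in M2 Lpl and Abca1 had r of -0.236 to -0.177.

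To ask whether digoxin changed these genes, mean CPM per mouse was compared between groups with limma over all genes, as log2(mean CPM + 1) with Benjamini-Hochberg adjustment. No member passed an adjusted p of 0.05 in any population tested. In macrophages 0 of 10 members were called, against 0% of 13734 genes, with 1 member, Lpl, at an unadjusted p under 0.05 (4.04% of genes), and edgeR (0% of genes) and DESeq2 (0.146% of genes) also called 0 members. In malignant cells 0 of 10 members were called by limma, against 0% of 17138 genes, with 1 member, Trem2, at an unadjusted p under 0.05 (3.41% of genes). edgeR called 0 there and DESeq2 called 1, Trem2 again, against 0.257% of genes. In the M1, M2 and Highly proliferative M2 sub-clusters 0 of 10 were called by limma, edgeR or DESeq2, with 4, 1 and 2 members at an unadjusted limma p under 0.05, against 7.73%, 2.28% and 3.94% of genes. limma and edgeR called 0% of genes in each of these sub-clusters, and DESeq2 called 0.296%, 0.0717% and 0.113%.

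Between macrophages and malignant cells of the same mice, the difference in digoxin effect was tested as an interaction, and limma called 0 of 10 members and 0% of 13532 genes. edgeR also called 0 members, and 2 members, Abca1 and Plin2, had an unadjusted limma p under 0.05, against 4.06% of genes. The estimate was 0.27 (SE 0.0919, limma adjusted p 0.999) for Abca1 and 0.24 (SE 0.0812, limma adjusted p 0.999) for Plin2, positive values meaning a higher digoxin effect in macrophages.

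Whether both digoxin mice lay on 1 side of both vehicle mice was read as a description. In macrophages 4 of 10 members were higher in both digoxin mice, Lpl, Fabp5, Plin2 and Gpnmb, against 13.6% of all genes tested, and 0 were lower, against 17.3%. Lpl, the largest of the 4, was 28.7 ± 13.2 CPM (SD, n = 2) with vehicle and 46.5 ± 5.40 CPM (SD, n = 2) with digoxin, with 0.75 as the limma estimate on the log2 scale (SE 0.292, adjusted p 1.00). Gpnmb differed by 0.60 (SE 0.270), Fabp5 by 0.19 (SE 0.111) and Plin2 by 0.17 (SE 0.109), each at a limma adjusted p of 1.00. The differences for Cd36, of 1.11 (SE 0.691), and Apoe, of -0.08 (SE 0.630), had the widest errors, and for both the digoxin mice overlapped the vehicle range. The median over the 10 members was 0.13, beside -0.01 over all genes tested.

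In M1 macrophages 6 of 10 members were higher in both digoxin mice, against 15.3% of genes, and 0 were lower, against 24% of genes. Plin2, the lipid droplet coat, was 253.3 ± 9.17 CPM (SD, n = 2) with vehicle and 346.1 ± 59.9 CPM (SD, n = 2) with digoxin, with 0.44 as the limma estimate on the log2 scale (SE 0.134, adjusted p 0.526). Fabp5 was 458.5 ± 97.7 CPM (SD, n = 2) with vehicle and 610.7 ± 37.7 CPM (SD, n = 2) with digoxin, with 0.43 as the limma estimate on the log2 scale (SE 0.155, adjusted p 0.579). Abca1 differed by 0.34 (SE 0.133, limma adjusted p 0.612), Gpnmb by 0.72 (SE 0.280, adjusted p 0.609), Lpl by 0.64 (SE 0.311, adjusted p 0.690) and Cd36 by 1.00 (SE 0.503, adjusted p 0.705). Without vehicle replicate 2 the estimates were 0.21 for Fabp5, 0.32 for Gpnmb, 0.11 for Lpl and 0.09 for Cd36, while Plin2 stood at 0.40 and Abca1 at 0.50. For Cd36 the separation was slight, since vehicle replicate 1 stood at 58.10 CPM and digoxin replicate 1 at 58.17 CPM. The members' median was 0.38, beside -0.02 over all genes tested in M1. The members were chosen with earlier results of these data known, so these counts stand as descriptions.

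In M2 macrophages Lpl was higher in both digoxin mice, at 24.8 and 11.2 CPM with vehicle and 29.9 and 44.8 CPM with digoxin, and was the single member to be so, against 15% of genes. The limma estimate was 1.08 on the log2 scale (SE 0.341, adjusted p 1.00). Fabp5 was lower in both digoxin mice in M2, at 273.3 and 344.1 CPM with vehicle and 249.6 and 268.5 CPM with digoxin, the single member to be so, against 11.7% of genes. That is the opposite side from M1, and whether the 2 sub-clusters differed in this was not tested. Without vehicle replicate 2 the M2 estimates were 0.54 for Lpl and -0.08 for Fabp5. In Highly proliferative M2 macrophages Lpl, Abca1 and Plin2 were higher in both digoxin mice, 3 of 10 against 17.4% of genes, and 0 were lower, against 12.6%. Lpl there was 84.9 ± 0.941 CPM (SD, n = 2) with vehicle and 116.1 ± 10.6 CPM (SD, n = 2) with digoxin, with 0.45 as the limma estimate on the log2 scale (SE 0.113, adjusted p 1.00), and Abca1 differed by 0.46 (SE 0.130, adjusted p 1.00). Lpl was thus the 1 member whose digoxin and vehicle mice did not overlap in any of the 3 sub-clusters. The share of all genes for which this held is not given here, and the sub-clusters come from the same mice. In M1 the separation of Lpl was slight, with vehicle replicate 1 at 33.2 CPM and digoxin replicate 1 at 34.9 CPM. With all mice the Cd36 estimate was also above 0 in all 3, with overlapping groups in M2 and Highly proliferative M2. Without vehicle replicate 2 the Cd36 estimate was 0.09 in M1 and -0.48 in M2.

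**Figure D3:**
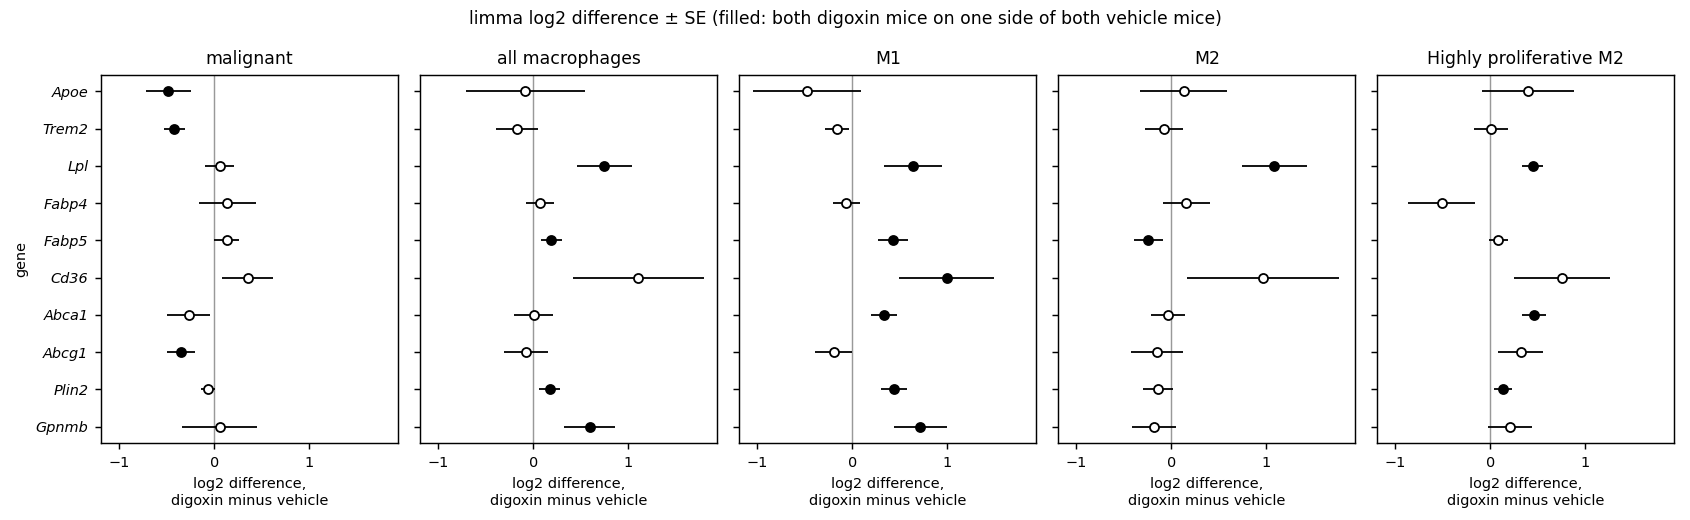
limma log2 difference between digoxin and vehicle with its standard error for each gene in malignant cells, all macrophages and the 3 sub-clusters. Filled points mark genes whose digoxin mice both lay on 1 side of both vehicle mice. Lpl is filled and to the right of 0 in all 4 macrophage panels, at 0.75, 0.64, 1.08 and 0.45.

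The number of macrophages with at least 1 UMI of a gene was compared after thinning each cell to 5000 UMIs, which removes differences in depth. Lpl was found in 8.79% and 5.15% of macrophages with vehicle and in 9.61% and 12.9% with digoxin. Gpnmb was found in 2.70% and 2.07% with vehicle and in 4.39% and 3.32% with digoxin. For both, the digoxin mice were above the vehicle mice, with a two-sided exact permutation p of 0.333, the smallest that 2 mice against 2 allow. Fabp5 and Plin2, higher in both digoxin mice as mean CPM, overlapped between groups as shares, at 54.0% to 59.7% and 57.8% to 61.8% over the 4 mice. T cells, which should lack Lpl and Gpnmb, had them in 0% to 2.10% and 0.965% to 2.33% of cells after the same thinning, at a median depth before thinning of 7244 to 8231.5 UMIs against 16070 to 17049 in macrophages. The share of macrophages with Gpnmb therefore lay below the T cell share of the same mouse in vehicle replicate 2 (2.07% against 2.33%). T cells of that mouse held only 4 Gpnmb UMIs in 110 cells before thinning. The shares of macrophages with Lpl lay above the T cell share in each mouse.

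Several members differed more between the vehicle mice than between the groups, and the plot of differences between mice sets these beside each other. For Cd36 in macrophages vehicle replicate 2 was lower than vehicle replicate 1 by 2.41 on the log2 scale, a gap reached by 0.117% of genes, while the digoxin mice differed by 0.45. The gap between the vehicle mice for Cd36 was -1.81 in M1, -2.90 in M2 and -1.88 in Highly proliferative M2. For Apoe it was 2.05 in M1, 1.78 in M2 and 1.90 in Highly proliferative M2, and for Lpl -1.07, -1.08 and -0.02. The median gap between the vehicle mice over all genes tested in macrophages was 0.17. The share of M2 among macrophages differed between these mice, as given above, and the gaps for Apoe and Cd36 were present within each sub-cluster. The part played by the different host cells of vehicle replicate 2 was not tested.

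Leaving out mice showed how far single vehicle mice set the results. Without vehicle replicate 1, limma called 3 of 10 members in macrophages, against 1% of genes. These were Cd36, at a log2 difference of 2.31 (adjusted p 0.0103), Apoe, at -1.19 (adjusted p 0.0184), and Lpl, at 1.22 (adjusted p 0.0247). Without vehicle replicate 2, 0 were called, and the differences were -0.10 for Cd36, 1.03 for Apoe, 0.28 for Lpl, 0.10 for Fabp5 and 0.26 for Gpnmb. Apoe and Cd36 thus changed sign with the vehicle mouse used, and Lpl kept its sign. In each of these fits 1 group held a single mouse, which was assumed to vary like the other group. The same fits called 4 members in M1, 2 in M2 and 2 in Highly proliferative M2 without vehicle replicate 1, against 1.72%, 0.407% and 2.33% of genes.

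**Figure D4:**
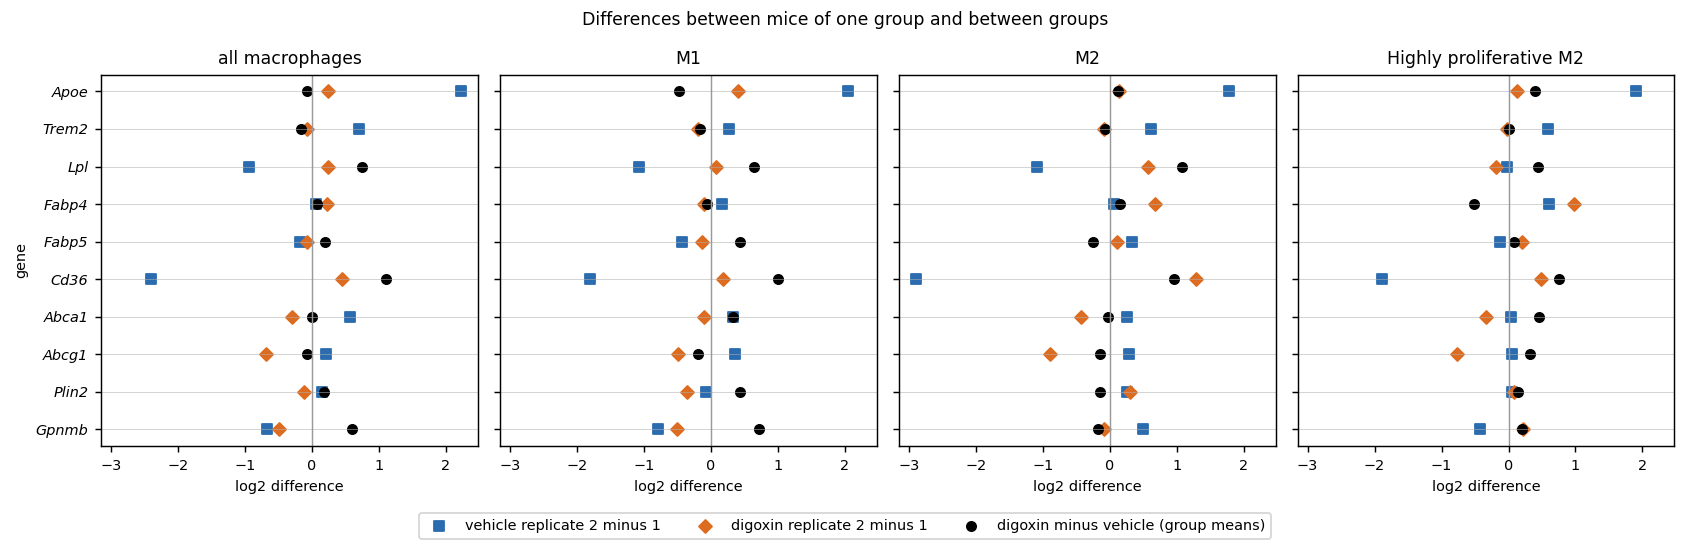
Log2 differences of mean CPM + 1 in all macrophages and the 3 sub-clusters: between the 2 vehicle mice (squares), between the 2 digoxin mice (diamonds) and between group means (circles). For Apoe and Cd36 the squares lie near 2 and -2 in all macrophages and the circles nearer 0, at -0.08 and 1.11.

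In malignant cells 3 members were lower in both digoxin mice, Apoe, Trem2 and Abcg1, against 16.5% of genes, and 0 were higher, against 12.8%. Trem2 was 7.18 and 6.86 CPM with vehicle and 5.36 and 4.66 CPM with digoxin, with -0.42 as the limma estimate on the log2 scale (SE 0.115, adjusted p 1.00). Apoe was 70.1 and 115.2 CPM with vehicle and 69.8 and 58.8 CPM with digoxin, a difference of -0.48 (SE 0.235, limma adjusted p 1.00), and vehicle replicate 1 and digoxin replicate 1 differed by less than 1 CPM. Abcg1 was 5.75 and 6.71 CPM with vehicle and 5.28 and 4.09 CPM with digoxin, a difference of -0.35 (SE 0.149, limma adjusted p 1.00). DESeq2 gave -0.52 (adjusted p 0.0224) for Trem2.

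The levels of Apoe and Trem2 in malignant cells were set beside those of macrophage genes. The summed level of 9 macrophage markers, all 9 detected, was 614.1 and 624.5 CPM in malignant cells with vehicle and 465.0 and 481.5 CPM with digoxin, also lower in both digoxin mice. The share of malignant cells with UMIs of at least 3 of 7 of these markers was 25.5% and 23.2% with vehicle and 25.9% and 33.1% with digoxin, higher in both digoxin mice. The separation was slight, between vehicle replicate 1 and digoxin replicate 1. This share was counted without thinning, and vehicle replicate 2 had the lowest median depth, at 46799 UMIs against 55363 to 57658 in the other mice. Malignant cells with UMIs of at least 3 of 7 macrophage markers carried Apoe at 244.3, 428.4, 229.1 and 146.4 CPM, and those with none at 8.95, 22.2, 15.99 and 18.7 CPM. Trem2 was 24.1, 24.8, 17.4 and 11.2 CPM in the first class and 1.36, 1.56, 1.20 and 1.44 CPM in the second. After thinning, 7.70% to 12.7% of malignant cells had an Apoe UMI and 1.92% to 2.94% a Trem2 UMI. T cells, in which both should be absent, had them in 7.66% to 23.1% and 3.67% to 13.5% of cells, so the malignant shares lay within or below the T cell range. Without the malignant cells that had at least 3 of the 7 markers, the limma estimates were -0.0054 for Apoe and -0.08 for Trem2, while that for Abcg1 was -0.39 (limma adjusted p 0.999 for each). Without the cells that Scrublet marked as doublets, Trem2 stood at -0.20. Apoe moved from -0.84 without vehicle replicate 1 to -0.13 without vehicle replicate 2.

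Fabp4 and Gpnmb behaved differently in malignant cells. Fabp4 was 52.4, 101.5, 67.6 and 71.5 CPM in malignant cells with no macrophage marker and 53.8, 105.4, 84.1 and 91.1 CPM in those with at least 3. It was found after thinning in 19.7%, 31.1%, 24.6% and 28.1% of malignant cells, against 2.06% to 3.91% of T cells and 3.49% to 5.57% of macrophages. Gpnmb was found in 3.75%, 9.11%, 5.83% and 6.39% of malignant cells, against 0.965% to 2.33% of T cells, and its mean CPM was lower, not higher, in cells with at least 3 macrophage markers. For neither gene did the groups separate, with log2 differences of 0.14 (SE 0.299) for Fabp4 and 0.06 (SE 0.398) for Gpnmb, each at a limma adjusted p of 1.00. Both differences changed sign with the vehicle mouse used. Without vehicle replicate 1 they were -0.33 for Fabp4 and -0.58 for Gpnmb, and without vehicle replicate 2 0.61 and 0.70. Fabp5, found in 68.3% to 77.2% of thinned malignant cells, differed by 0.13 (SE 0.131), and Plin2, found in 29.8% to 31.1%, by -0.06 (SE 0.0744).

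In endothelial-marker cells the fatty acid uptake genes differed widely between mice. Fabp4, Cd36, Fabp5 and Lpl were all highest in vehicle replicate 1 and lowest in vehicle replicate 2, with the digoxin mice between them. Vehicle replicate 2 held 0.104 times the Fabp4 of vehicle replicate 1, 0.133 times the Cd36, 0.202 times the Fabp5 and 0.0839 times the Lpl. Lpl rested on 75, 11, 32 and 48 UMIs. Its median was 0 CPM in each mouse, and the top 10% of cells held 88.4% to 100% of its summed level. The endothelial markers themselves were 4440, 4976, 4693 and 4362 CPM in sum, and Gpihbp1, Aqp1 and Rgcc, genes of capillaries that take up fatty acids, summed to 2284, 2669, 2193 and 2624 CPM. Fabp4 was concentrated in few cells: the top 10% of these cells held 75.1%, 64.5%, 61.4% and 74.6% of its summed level, at medians of 905.4, 47.7, 252.2 and 208.8 CPM. The adipocyte markers detected, 3 of 6, summed to 13.5 CPM in vehicle replicate 1 and at most 1.28 CPM in the other mice.

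limma called 0 of the 9 members tested in endothelial-marker cells, against 0.467% of 10272 genes, and edgeR (0% of genes) and DESeq2 (0.146%) called 0 members, with 1 member, Trem2, at an unadjusted limma p under 0.05 (5.77% of genes). Trem2 was higher in both digoxin mice, at 4.04 and 4.49 CPM with vehicle and 14.5 and 14.2 CPM with digoxin, a difference of 1.55 (SE 0.417, limma adjusted p 0.264), the single tested member to be so. It rests on 13, 6, 37 and 24 UMIs, and its vehicle mice alone would not have passed the expression filter, so its place is not read against the 17.8% of genes that were higher in both digoxin mice or its p against the share above. Of the members tested 0 of 9 were lower, against 16.3% of genes. Without vehicle replicate 1 the limma estimates were 1.45 for Fabp4, 2.05 for Cd36, 1.35 for Fabp5 and 1.38 for Lpl. Without vehicle replicate 2 they lay in the other direction, at -1.81 for Fabp4, -0.84 for Cd36, -0.95 for Fabp5 and -1.99 for Lpl. In these fits the vehicle group held 1 mouse, so the spread between vehicle mice did not enter the error. The macrophage markers of these cells were 416.7, 845.7, 1035 and 1174 CPM in sum, also higher in both digoxin mice, and their part in the result was not tested.

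**Figure D5:**
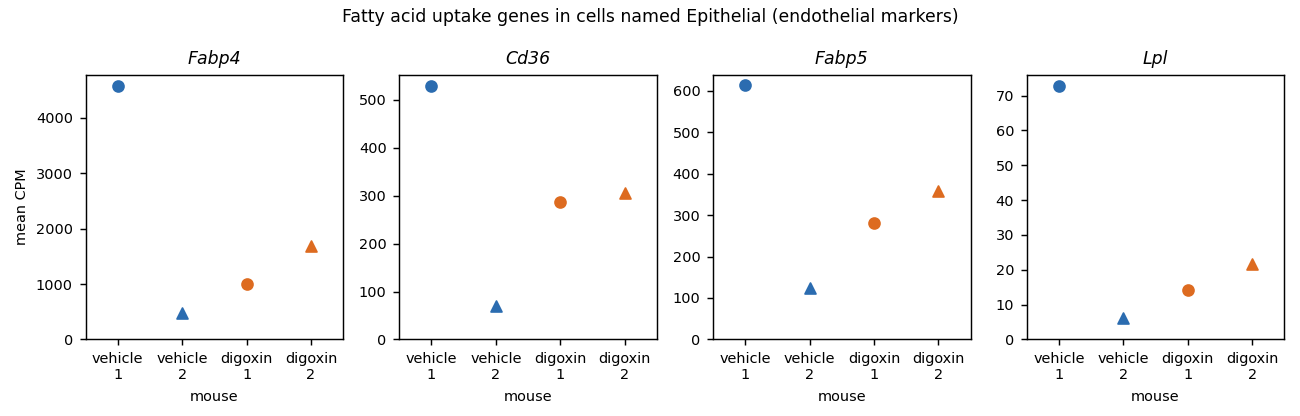
Mean CPM of Fabp4, Cd36, Fabp5 and Lpl in cells named Epithelial that carry endothelial markers, 1 point per mouse. Both digoxin mice lie between vehicle replicate 1, the highest, and vehicle replicate 2, the lowest, for all 4 genes. Lpl rests on 11 to 75 UMIs per mouse.

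In osteoclasts, where Trem2 and Lpl are strong, 3 of 7 members tested were lower in both digoxin mice, Trem2, Lpl and Abcg1, against 15.8% of genes, and 1 was higher, Fabp5, against 21.6%. For Fabp5 the separation was slight, with vehicle replicate 1 at 133.76 CPM and digoxin replicate 2 at 134.01 CPM. Lpl differed by -0.36 (SE 0.139, limma adjusted p 0.781), Trem2 by -0.34 (SE 0.171, adjusted p 0.785) and Abcg1 by -0.66 (SE 0.258, adjusted p 0.781). For Trem2, vehicle replicate 1 and digoxin replicate 1 lay close, at 246.7 and 241.8 CPM, and digoxin replicate 2 was lower, at 178.8 CPM. limma called 0 of these members, against 0.0128% of genes. DESeq2 called 0.0769% of genes in osteoclasts. In fibroblasts 0 of 6 members were called by limma, against 0% of genes, and by DESeq2, against 0.0108%. Fabp5 there was 140.2 and 67.0 CPM with vehicle and 145.7 and 178.3 CPM with digoxin, a difference of 0.73 (SE 0.342, limma adjusted p 0.999). The difference leaned on vehicle replicate 2, since vehicle replicate 1 lay close to digoxin replicate 1. Fabp5 was the single tested member higher in both digoxin mice, against 10.1% of genes, and 0 were lower, against 19.4%.

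Apoe was low in NK cells and in the Siglech-high cells, and both populations showed it higher in both digoxin mice. In NK cells, which carried the NK gene Ncr1 at 626.7 to 867.8 CPM, Apoe was 14.8 and 70.5 CPM with vehicle and 131.5 and 210.3 CPM with digoxin, a difference of 2.31 (SE 0.467, limma adjusted p 0.143). edgeR called it, at 2.36 (adjusted p 0.0261), against 0.186% of genes, and DESeq2 called 0 members. Trem2, Fabp5 and Plin2 were also higher in both digoxin mice in NK cells, where 19.1% of genes were. Abca1 was too, from 13, 3, 54 and 36 UMIs, but its vehicle mice alone would not have passed the filter, so it is not read against that share. limma called 0 members in NK cells, against 0.0765% of genes. The macrophage markers of NK cells summed to 595.3 and 607.7 CPM with vehicle and 682.3 and 1088 CPM with digoxin, higher in both digoxin mice too. In NK cells with no macrophage marker Apoe was 3.89, 47.6, 25.2 and 26.5 CPM, and the groups overlapped. In the 4 to 22 NK cells per mouse with at least 3 of 7 markers it was 127.7, 628.1, 1107 and 1212 CPM.

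In Siglech-high cells Apoe was 5.25 and 35.98 CPM with vehicle and 141.3 and 131.2 CPM with digoxin, from 3, 12, 219 and 68 UMIs in all. The log2 difference was 3.17 (SE 0.577, limma adjusted p 0.1001), and limma called 0 of the 4 members tested, against 0% of genes, as did DESeq2, against 0.0172%. The vehicle mice alone would not have carried Apoe past the expression filter, so its place above both vehicle mice is not read against the 16.7% of genes that were higher in both digoxin mice or the 16.2% that were lower. Abca1 and Gpnmb were also higher in both digoxin mice, at 24 UMIs or fewer in each mouse, and were not tested. Cells of this type without a macrophage marker carried 8.24, 42.8, 9.62 and 16.8 CPM, and the groups overlapped. Those with at least 3 of 7 markers, 5, 2, 6 and 3 cells, carried 0, 133.7, 1210 and 843 CPM. The summed macrophage markers were 1252, 515.9, 1128 and 1621 CPM and overlapped as well. Without 1 mouse the estimate ran from 1.89 to 4.46, and limma called Apoe in each of these fits, which the filter limits in the same way and which are not read as support. In NK cells the Apoe estimate ran from 1.23 without vehicle replicate 1 to 3.40 without vehicle replicate 2, with 1 group of each fit holding a single mouse. In T cells Apoe was 22.2, 688.8, 158.6 and 125.9 CPM, with digoxin mice inside the vehicle range, and limma, edgeR and DESeq2 called 0 of 6 members, against 0% of genes. The limma estimate for Apoe was -2.28 without vehicle replicate 1 and 2.62 without vehicle replicate 2. In both fits the vehicle group held 1 mouse, so the spread between vehicle mice did not enter the error.

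Other genes of the same pathways were read in 5 lists, beside 0% of all genes called in macrophages, 13.6% higher and 17.3% lower in both digoxin mice, and a median of -0.01. Among LXR targets and regulators 0 of 17 genes tested were called in macrophages in either direction, and the list's median was 0.01. Among genes of fatty acid uptake and lipid storage 0 of 30 were called, with 6 higher and 2 lower in both digoxin mice and a median of 0.10. Among genes of lysosomal lipid handling 0 of 19 were called, at a median of -0.05, among TREM2 signalling genes 0 of 14, at 0.06, and among companions of lipid-associated macrophages 0 of 20, at 0.11, with 8 higher and 1 lower in both digoxin mice. The 4 list genes with the smallest p in macrophages were Hilpda, Ctsl, Lrp1 and Trem1. Hilpda, an inhibitor of triglyceride breakdown at lipid droplets, was 143.1 and 101.5 CPM with vehicle and 251.7 and 185.1 CPM with digoxin, a difference of 0.84 (SE 0.208, limma adjusted p 1.00). Ctsl, a lysosomal protease, was 718.1 and 692.2 CPM with vehicle and 981.3 and 910.3 CPM with digoxin, a difference of 0.42 (SE 0.105, limma adjusted p 1.00). Lrp1, a receptor that takes up apolipoprotein E particles, differed by 0.30. Trem1, a receptor of myeloid cells, differed by 0.53, at 59.6 and 41.5 CPM with vehicle and 80.1 and 65.3 CPM with digoxin, vehicle replicate 2 being the lowest.

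In malignant cells limma called 0 genes of each list, and the list genes with the smallest p, Lyz2, Spp1, Hexa and Npc2, were lower in both digoxin mice, with differences of -0.37, -0.40, -0.20 and -0.17. Lyz2 is itself one of the macrophage markers summed above, and it stood at 0.39 without malignant cells that had 3 of the 7 markers. In endothelial-marker cells 2 list genes passed limma, 1 of 24 tested in the fatty acid list and 1 of 18 among the companions of lipid-associated macrophages, against 0.467% of all genes. Angptl4, a secreted inhibitor of lipoprotein lipase, fell from 94.3 and 116.0 CPM with vehicle to 48.2 and 54.5 CPM with digoxin (log2 difference -1.01, SE 0.185, limma adjusted p 0.0484). Lgals3, which encodes galectin-3, rose from 58.8 and 78.4 CPM to 228.0 and 133.8 CPM (log2 difference 1.35, SE 0.242, limma adjusted p 0.0449). Both calls depended on the settings. They were lost with edgeR (adjusted p 0.928 and 0.709), which called 0 genes in these cells, with DESeq2 (adjusted p 0.999 for both), and without digoxin replicate 1 (adjusted p 0.392 for both). Angptl4 was also lost without digoxin replicate 2 (adjusted p 0.258) and stood at -0.55 when summed UMIs replaced the mean over cells. The macrophage markers of these cells were also higher in both digoxin mice, as given above, and their part in the Lgals3 call was not tested.

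Genes with the most similar pattern over 8 populations, the malignant cells and the 7 types with at least 20 cells in every mouse, were ranked by the Pearson r of log2(mean CPM + 1) among 9104 genes. These 8 points share libraries, and r is a description. Trem2 was closest to Csf1r (r = 0.99) and Ccr1 (r = 0.99), Apoe to Gas6 (r = 0.94) and Ly6i (r = 0.94), and Lpl to Lmf1 (r = 0.95) and Tgfbr2 (r = 0.94). Fabp4 was closest to A430105I19Rik (r = 0.99) and Stc1 (r = 0.99), Cd36 to Ednrb (r = 0.98) and Rab11a (r = 0.98), and Fabp5 to Uba1 (r = 0.93) and Camk2d (r = 0.93). For Abca1 they were Adam15 (r = 0.96) and Gda (r = 0.96), and for Plin2 Snx6 (r = 0.99) and Mfsd1 (r = 0.97). Gpnmb did not reach a mean over mice of 20 CPM in any population and was not ranked. Among the members themselves Cd36 and Abca1 were the most alike pair, at r = 0.80.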

How the data were processed

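Single-cell RNA-seq was read in 4 mice, 2 per group. The authors deposited natural log values, ln(1 + UMIs per 10000 UMIs of the cell), for malignant and non-malignant cells, with cell tables. Per the submitters' processing notes, Cell Ranger 3.0.2, Seurat 3.0.2 and mm10 were used, with roles and filters not given in the sources used here. Whole UMI counts were recovered from the deposited values for 100% of non-zero entries (tolerance 0.01), and they summed to the deposited count of every cell. Columns of no sample numbered 0.

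CPM per cell was averaged per mouse and population, and log2(mean CPM + 1) was fitted with limma 3.58.1 (variance trend, Benjamini-Hochberg over all genes kept by filterByExpr, 0.05). Populations needed at least 20 cells in every mouse. The interaction used mouse as a block. The limma step was tested on simulated summed UMIs of malignant cells and macrophages, not on means over cells. Alternatives were edgeR 4.0.16 (quasi-likelihood) and DESeq2 1.42.0 on summed UMIs, a pseudocount of 10, no filter, summed UMIs, no cells over 20% mitochondrial, no doublets, no malignant cells with 3 of 7 macrophage markers, a replicate block and leaving out each mouse. Scrublet (scanpy 1.11.5) marked 1531 of 31611 cells (4.84%), 5.89% to 10.1% of malignant and 0.332% to 1.19% of non-malignant cells per mouse, and these were kept. Shares of cells were thinned to 5000 UMIs, 2000 being an alternative, and tested with a two-sided exact permutation test. The members and lists were chosen with earlier results of these data known. Named list genes were those past the threshold and, in macrophages and malignant cells, the 4 with the smallest p at 20 CPM or more. The genes most like Abcg1 are not reported here. Intervals of depth cover counting error only.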

Additional observations from a re-analysis of the deposited data

Results flagged for a closer look

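Among the members and populations that were tested, 4 members had populations in which both digoxin mice were higher and others in which both were lower. For each, the pair of populations furthest apart is given, and these differences were not tested. For Apoe the effect in cells named Microglia exceeded that in malignant cells by 3.66 on the log2 scale, from 3 to 219 Apoe UMIs per mouse in the former, where the vehicle mice alone would not have passed the expression filter. For Trem2 the effect in cells named Epithelial exceeded that in malignant cells by 1.96, where the same limit holds for the cells named Epithelial, and summed macrophage markers were higher in both digoxin mice in the first and lower in the second. For Fabp5 the effect in fibroblasts exceeded that in M2 macrophages by 0.97. Vehicle replicate 2 was the lowest mouse for Fabp5 in fibroblasts, at 67.0 CPM, and the highest in M2 macrophages, at 344.1 CPM. For Lpl the effect in M2 macrophages exceeded that in osteoclasts by 1.45.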

How the results depend on the processing

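The count of members called was 0 by limma in each population of the report. DESeq2 called 1 in malignant cells, and in the other deposited types edgeR, the pseudocount of 10 and the replicate block each called 1. Leaving out each mouse gave 0 to 0 in malignant cells, 0 to 1 in all non-malignant cells, 0 to 3 in macrophages, 0 to 4 in M1, 0 to 2 in M2, 0 to 2 in Highly proliferative M2, 2 to 9 in the other types and 0 to 2 for the interaction. In the fatty acid list it gave 0 to 1, and for shares of macrophages that did not overlap, 5 to 7 members against 2. A group of 1 mouse makes such separation more likely by construction, and the share over all genes was not computed. Of 53 log2 differences followed, 405 of 431 values under other settings and 174 of 212 without a mouse kept their direction and side of the threshold. In macrophages, leaving out each mouse took the log2 difference of Apoe from -1.19 to 1.03 (all mice -0.08, 0.032 without digoxin replicate 1), Trem2 from -0.52 to 0.18 (all mice -0.17), Cd36 from -0.10 to 2.31 (all mice 1.11) and Abca1 from -0.28 to 0.29 (all mice 0.0043), so each changed sign. The highest Apoe, Trem2 and Abca1 and the lowest Cd36 came without vehicle replicate 2, and the other ends without vehicle replicate 1. Abca1 was also below 0 with edgeR (-0.030) and DESeq2 (-0.023). Abcg1 (all mice -0.078) was above 0 without vehicle replicate 2 (0.025) and without digoxin replicate 2 (0.27). It was also above 0 with edgeR (0.0080) and DESeq2 (0.014). Fabp4 (all mice 0.076) was below 0 without digoxin replicate 2 (-0.032). In cells named Epithelial, Fabp4 changed sign without vehicle replicate 1 (1.45; range down to -1.81 without vehicle replicate 2), without digoxin replicate 1 (0.19) and with summed UMIs (0.011). There Lpl (from -1.99 to 1.38, 0.0088 with DESeq2, 0.40 with summed UMIs), Fabp5 (from -0.95 to 1.35) and Cd36 (from -0.84 to 2.05) changed sign with the vehicle mouse used. In T cells Apoe (from -2.28 to 2.62) also did so with edgeR (-1.47), DESeq2 (-1.49) and without doublets (-1.66). In malignant cells Lyz2 did so without doublets (0.0082) and without cells with 3 macrophage markers (0.39). The causes were not tested. Same-numbered mice correlated in their deviations from group means at r = -0.363 in malignant cells and -0.040 in macrophages (2 pairs, too few to settle whether the numbers pair the mice), and the labels tie the mice only by number. The replicate block called 0 members in macrophages. Siglech-high cells and NK cells rest on 31 to 150 cells per mouse, which limits depth for Apoe there.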
